A study of Mus musculus with 4 samples.

Results

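The effectors and target genes of Wnt signalling were examined in mouse embryonic stem cells with altered lactate dehydrogenase. The 10 genes were chosen by symbol: Lef1, Tcf7, Tcf7l1, Tcf7l2, Ctnnb1, Axin2, Sp5, Cdx1, Nkd1 and T. All 10 were found among the 25170 genes of each table, and 8 of them reached a level of at least 1 in at least 1 library, as did 13142 genes in all, which are the genes kept for comparison. Sp5 and T stayed below that level in all 4 libraries. The set was proposed with the levels in these same libraries known, so the values of its members are a description.

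There were 4 groups with 1 library each. WT was the unedited E14 stem cell line under normal culture, SO was wild-type cells given an inhibitor treatment that the labels name only as SO, Ldha_KO carried a knockout of Ldha, and Ldhb_KO carried a knockout of Ldhb. The medium of all 4 held serum and LIF on gelatin-coated dishes, with no feeder cells named, and the libraries were made from polyadenylated RNA. The sources used here give no dose or time for SO and do not say whether each knockout was 1 clone. With 1 library per group there is no replicate error and no test, and every difference is between libraries.

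In canonical Wnt signalling, ligands bind Frizzled and Lrp receptors and stop a destruction complex from degrading beta-catenin. Beta-catenin then enters the nucleus and binds the TCF and LEF proteins, which sit on DNA and switch from repressing to activating their targets. In mouse embryonic stem cells the pathway supports self-renewal, and Tcf7l1 acts mainly as a repressor of pluripotency genes. The same pathway drives T and other genes of the primitive streak when cells leave pluripotency.

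The letters that TCF and LEF proteins are known to favour were looked for in RefSeq promoter windows of build GRCm38.p6, which is not the build of the deposited values (mm9). Each window ran from 250 bases before a start site to 50 after it. The search was for CTTTG followed by AA, AT, TA or TT, on both strands. Of the members, 9 matched the table by symbol, with 15 windows, and 4 windows held a match, which is 26.7%. Of all 32851 windows, 16.9% held one. The sequences before 4 start sites are shown because Sp5, T and Lef1 are textbook Wnt targets that stood at different levels here. All are 5′ to 3′ on the plus strand, with matches in capitals. The windows are chr2:70474673-70474922 for Sp5, chr17:8434173-8434422 for T, chr3:131110047-131110296 for the first Lef1 start and chr3:131156044-131156293 for the last.
Sp5: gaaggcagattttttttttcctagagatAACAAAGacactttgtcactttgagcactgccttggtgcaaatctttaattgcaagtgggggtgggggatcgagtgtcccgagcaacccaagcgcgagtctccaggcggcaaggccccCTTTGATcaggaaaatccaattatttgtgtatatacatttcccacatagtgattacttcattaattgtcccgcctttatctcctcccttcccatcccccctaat
T: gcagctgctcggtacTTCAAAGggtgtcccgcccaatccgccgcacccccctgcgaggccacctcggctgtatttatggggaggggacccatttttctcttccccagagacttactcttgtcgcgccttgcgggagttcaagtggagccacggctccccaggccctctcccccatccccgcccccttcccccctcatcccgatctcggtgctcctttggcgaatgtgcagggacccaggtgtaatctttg
Lef1, first start: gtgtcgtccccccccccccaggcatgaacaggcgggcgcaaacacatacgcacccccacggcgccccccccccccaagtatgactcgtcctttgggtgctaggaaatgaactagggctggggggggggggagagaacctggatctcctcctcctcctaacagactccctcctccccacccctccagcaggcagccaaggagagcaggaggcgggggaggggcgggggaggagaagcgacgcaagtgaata
Lef1, last start: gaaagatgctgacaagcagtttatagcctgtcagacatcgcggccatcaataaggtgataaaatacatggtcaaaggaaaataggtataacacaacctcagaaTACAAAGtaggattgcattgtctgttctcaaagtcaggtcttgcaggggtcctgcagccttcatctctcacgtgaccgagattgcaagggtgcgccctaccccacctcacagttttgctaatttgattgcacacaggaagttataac
Sp5 held matches 222 and 104 bases before its start, T held 1 at 235 bases, and the last Lef1 start held 1 at 147 bases. The first Lef1 start, the only Axin2 window and the only Nkd1 window held none, which says only that these letters are not in these windows. The other match lay 14 bases before a start of Tcf7l2.

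The targeted genes were checked first. Ldha was at 1774 FPKM in WT, with 1711 in SO, 154 in Ldha_KO and 2237 in Ldhb_KO. The values of Ldhb were 76.5, 139, 158 and 5.74 in the same order. Each knockout library was thus lowest for the gene named in its label. All 9 stem cell markers were at 1 or above in every library, with sums of 5885 to 6842. Among 10 fibroblast or feeder markers, Dcn and Lum were at 0 in every library, and the sums of 42.4 to 52.8 came mostly from Thy1 (36.9 to 47.4). The sums were 2.64 to 4.94 for 6 mesoderm markers, 3.83 to 6.43 for 7 primitive endoderm markers, 9.33 to 14.1 for 6 neuroectoderm markers and 50.1 to 81.8 for 7 trophectoderm markers. Among the neuroectoderm markers, Neurod1 was at 1.56 in WT, with 8.06 in SO, 3.00 in Ldha_KO and 3.31 in Ldhb_KO. Sox1 was highest in WT, at 0.883 against 0.130 to 0.281 elsewhere. The trophectoderm sum was lowest in WT and highest in Ldhb_KO, and 4 of its 7 markers (Krt8, Krt18, Tfap2c and Eomes) were above 1 in every library. Tfap2c was at 9.80 in WT and 26.1 in Ldhb_KO, Krt18 at 14.8 and 29.0, and Elf5 at 0.159 and 0.289. Krt8 was at 19.7 and 22.3, and highest in Ldha_KO (30.6). Lower in Ldhb_KO than in WT were Gata3 (0.335 against 0.352), Cdx2 (0.0749 against 0.433) and Eomes (3.77 against 4.84). Eomes was highest in SO, at 9.22. Cdx2, the defining factor, was below 1 in every library and highest in WT. The part of these markers in the results was not tested.

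Lef1, which encodes the lymphoid enhancer factor of the TCF/LEF family and is itself a Wnt target, differed most among the 10. It was at 9.51 FPKM in WT, with 2.46 in SO, 2.14 in Ldha_KO and 4.36 in Ldhb_KO. WT stood above the other 3 libraries, SO and Ldha_KO lay close together, and Ldhb_KO lay between. The level in WT was 3.87 times that in SO, 4.45 times that in Ldha_KO and 2.18 times that in Ldhb_KO. As levels, SO and Ldha_KO were less than 2-fold apart, as were SO and Ldhb_KO, while Ldhb_KO was 2.04 times Ldha_KO.

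Differences between libraries were taken on the log2(FPKM + 1) scale, where a gene was called higher or lower at a difference of 1 or more in size. The difference of Lef1 from WT was -1.60 in SO and -1.74 in Ldha_KO, and both were called lower. In Ldhb_KO it was -0.97, just short of the call. Of all 13142 genes, 0.472% were called lower in SO and 1.06% in Ldha_KO, and 11 and 14 genes respectively, Lef1 included, lay at its difference or below. In Ldhb_KO 1.09% of genes were called lower, and 1.26% lay at the difference of Lef1 or below. These shares describe where Lef1 stood and test nothing, since the levels helped to choose it. The 3 comparisons share the single WT library.

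**Figure D1:**
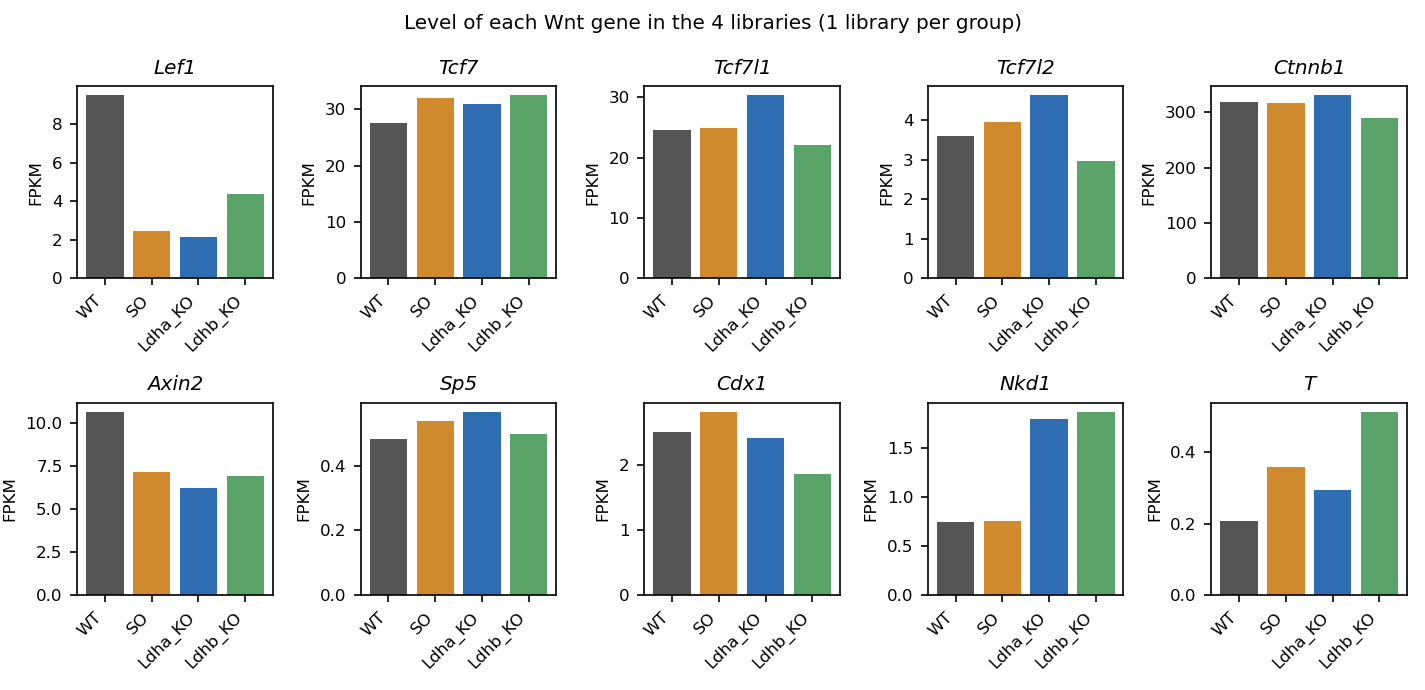
Level in FPKM (vertical axis, from 0, a scale per panel) of each of the 10 Wnt genes in the 4 libraries (horizontal axis); each bar is 1 library, so there are no error bars. Lef1 and Axin2 were highest in WT, Nkd1 was at 0.749 and 0.751 in WT and SO and at 1.80 and 1.87 in the knockouts, and Ctnnb1 lay between 290 and 331.

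The other members of the family differed far less. Tcf7, which encodes TCF1, was at 27.5 FPKM in WT, with 32.0 in SO, 31.0 in Ldha_KO and 32.5 in Ldhb_KO. WT was the lowest of the 4 for Tcf7, by 1.13 times against the next. Tcf7l1, which encodes the repressor TCF3 of stem cells, was at 24.5, 24.8, 30.3 and 22.1 in the same order. Tcf7l2, which encodes TCF4, was at 3.60, 3.95, 4.63 and 2.95. Both Tcf7l1 and Tcf7l2 were highest in Ldha_KO and lowest in Ldhb_KO, by 1.37 and 1.57 times. Their differences between the knockouts on the log2(FPKM + 1) scale were 0.44 and 0.51, and neither was called.

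FPKM is scaled by length, so levels can be set side by side. The 4 TCF/LEF genes summed to 65.1 FPKM in WT, with 63.3 in SO, 68.1 in Ldha_KO and 61.9 in Ldhb_KO. The sum was thus similar in the 4 libraries, while its makeup differed. Lef1 made up 14.6% of it in WT, with 3.88% in SO, 3.14% in Ldha_KO and 7.04% in Ldhb_KO. Tcf7 was the largest part in every library, from 42.2% in WT to 52.5% in Ldhb_KO. Tcf7l1 made up 35.7% to 44.6% and Tcf7l2 4.77% to 6.80%. In bulk RNA, fewer cells that express a gene and less RNA per cell cannot be told apart.

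**Figure D2:**
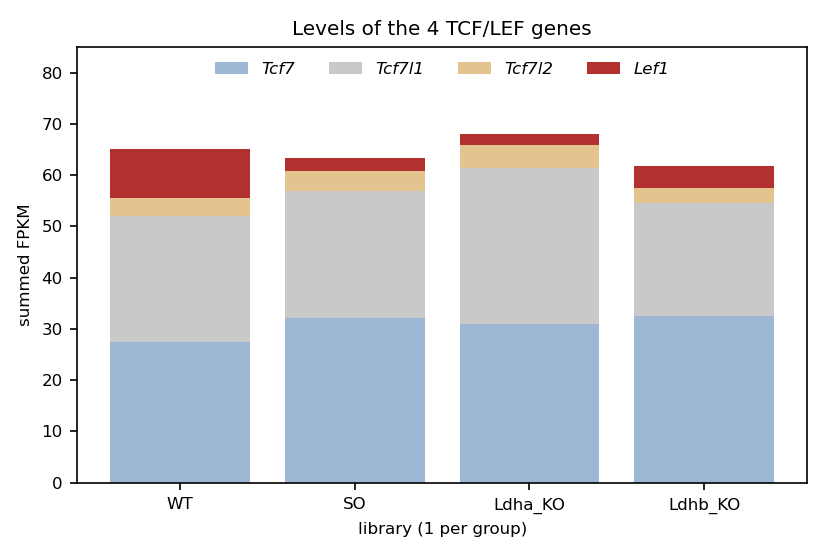
Summed FPKM of Tcf7, Tcf7l1, Tcf7l2 and Lef1 (vertical axis, from 0) in each of the 4 libraries (horizontal axis), stacked by gene. The sum lay between 61.9 and 68.1, and the Lef1 part was 14.6% in WT against 3.14% to 7.04% in the other libraries.

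Ctnnb1, which encodes beta-catenin, had the highest level of the 10. It was at 319 FPKM in WT, with 316 in SO, 331 in Ldha_KO and 290 in Ldhb_KO. The highest and lowest libraries were 1.14 times apart, the narrowest spread of the set. Its difference from WT was -0.01 in SO, 0.05 in Ldha_KO and -0.14 in Ldhb_KO. The sign in SO turned to 0.14 after rescaling each library to the WT sum. Beta-catenin is regulated mostly by protein stability and location, which these data do not measure.

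Among the negative feedback targets, Axin2, a scaffold of the destruction complex that Wnt signalling induces, was at 10.7 FPKM in WT, with 7.14 in SO, 6.25 in Ldha_KO and 6.90 in Ldhb_KO. WT was the highest, and the other 3 libraries lay between 6.25 and 7.14. The level in WT was 1.495, 1.71 and 1.55 times those in SO, Ldha_KO and Ldhb_KO. The differences from WT were -0.52, -0.69 and -0.56 on the log2(FPKM + 1) scale, and none was called. Differences as low or lower were seen in 5.92%, 3.84% and 7.89% of all genes in the same order.

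Nkd1, an inhibitor of Dishevelled that Wnt signalling also induces, showed another pattern. It was at 0.749 FPKM in WT, with 0.751 in SO, 1.80 in Ldha_KO and 1.87 in Ldhb_KO. Both knockouts lay above WT and SO, and within each pair the values were within 1.05 times. The level was 2.399 times WT in Ldha_KO and 2.501 times WT in Ldhb_KO. On the log2(FPKM + 1) scale these differences were 0.68 and 0.72 and were not called, since the pseudocount of 1 shrinks the differences of genes near 1. Nkd1 passed the filter on low values only through the knockouts. With a pseudocount of 0.1 both were called, at 1.16 and 1.22, where 6.6% and 8.68% of all genes were called higher. Axin2 lay below WT in the knockouts and Nkd1 above. Passing the filter only through the knockouts fixed the sign of Nkd1 there, and neither gene was called at the pseudocount of 1.

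Cdx1, a homeobox gene that Wnt and retinoic acid signalling induce, was at 2.49 FPKM in WT, with 2.81 in SO, 2.41 in Ldha_KO and 1.85 in Ldhb_KO. Its highest and lowest libraries were 1.52 times apart, and no difference was called. The difference in Ldha_KO, -0.04, changed sign after rescaling each library to the WT sum (0.06). Sp5, a zinc finger factor induced directly by Wnt signalling, was at 0.485, 0.541, 0.569 and 0.4996 in the same order, a spread of 1.17 times. T, which encodes brachyury, a factor of the primitive streak, was at 0.208 in WT, with 0.358 in SO, 0.293 in Ldha_KO and 0.514 in Ldhb_KO. WT was the lowest for both Sp5 and T, and neither reached the filter of 1 in a library.

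The low values of Sp5 and T rest on few reads. Low genes step between libraries in ratios of small whole numbers once the value of 1 read is set to 0.956 of that in WT for SO, 1.004 for Ldha_KO and 0.95 for Ldhb_KO. The smallest whole reads that match T in all 4 libraries were 5 in WT, with 9 in SO, 7 in Ldha_KO and 13 in Ldhb_KO. The match allowed 0.1% in SO and 1% in the knockouts, and multiples of these numbers would match too. Of 1158 genes above 0 and below 0.3 FPKM in every library, 73.3% in SO, 47.2% in Ldha_KO and 56.6% in Ldhb_KO lay within 0.1% of such a ratio to WT, at the value of 1 read that gave the most matches. The exact Poisson interval (95%, counting error only) was 1.62 to 11.7 reads for T in WT and 6.92 to 22.2 in Ldhb_KO, and these overlap. For Sp5 the reads were 12, 14, 14 and 13 in the same order, with an interval of 6.20 to 21.0 in WT, so no difference in Sp5 was detectable at these read numbers.

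With the longest coding transcript of GENCODE M21, the smallest whole reads of Sp5 and T put the depth of WT at about 12000000 reads. At that depth Lef1 rested on roughly 390 reads in WT, with 110 in SO, 87 in Ldha_KO and 190 in Ldhb_KO. Axin2 rested on roughly 540, 370, 310 and 360, and Nkd1 on roughly 36, 38, 86 and 95. Counting error alone would then be 5.07% for Lef1 in WT and 10.7% in Ldha_KO, and 16.7% for Nkd1 in WT. These figures are rough, since the transcript lengths come from another annotation, and they leave out all error between cultures. They also assume the smallest whole reads. A multiple of those would raise the depth and the reads and lower the counting error.

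Over the 8 genes that passed the filter, 0 were called higher and 1 lower in SO, 0 and 1 in Ldha_KO, and 0 and 0 in Ldhb_KO. The gene called lower was Lef1 both times. Of all genes, 2.69%, 2.65% and 3.36% were called higher in the same order, and 0.472%, 1.06% and 1.09% lower. The median difference of the 8 was 0.01 in SO, 0.11 in Ldha_KO and -0.18 in Ldhb_KO, beside -0.04, -0.03 and -0.02 over all genes. In SO 5 of the 8 were above 0 and 3 below, in Ldha_KO 5 and 3, and in Ldhb_KO 2 and 6. Of all genes, 54.3%, 53.2% and 52.3% were below 0 in the same order. Nkd1, counted above 0 each time, passed the filter only through the knockouts, and was at 0.749 in WT and 0.751 in SO. Between the knockouts none was called, with 1.67% of all genes called higher in Ldha_KO and 1.54% lower. The difference of Lef1 there was -0.77, and that of Axin2 was -0.12.

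**Figure D3:**
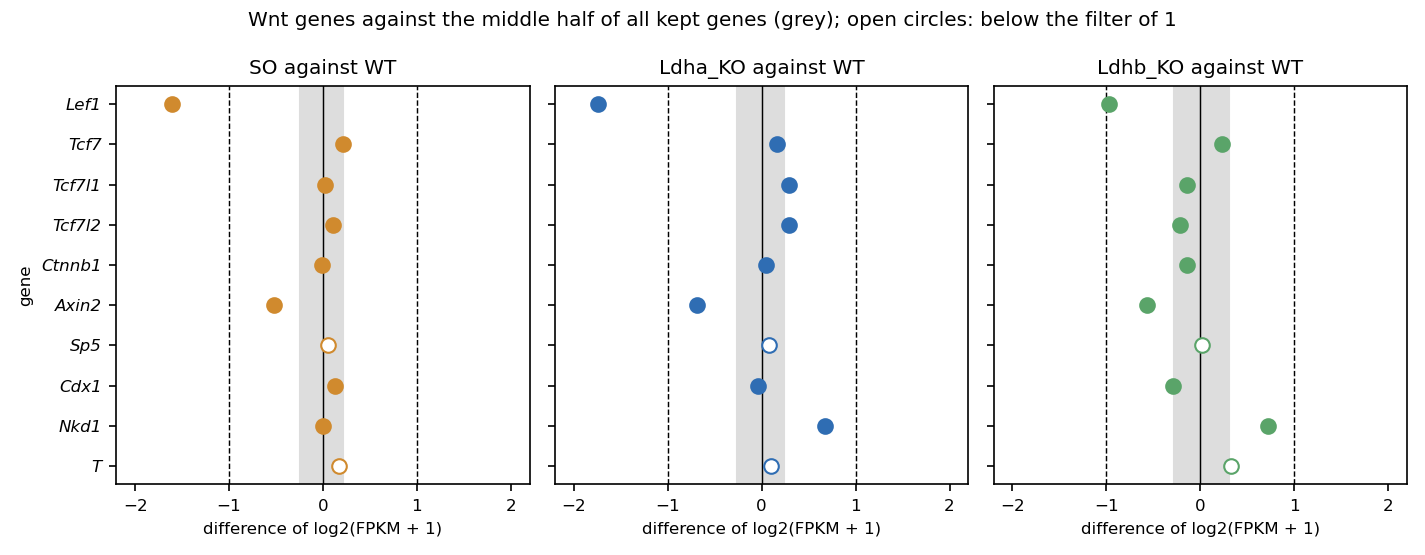
Difference from WT on the log2(FPKM + 1) scale (horizontal axis) of each of the 10 Wnt genes (vertical axis) in SO, Ldha_KO and Ldhb_KO; 1 point is 1 pair of libraries. Grey marks the range from the first to the third quartile of all 13142 kept genes, dashed lines the call at 1 in size, and open circles Sp5 and T, which are below the filter; Lef1 passed the call in SO (-1.60) and Ldha_KO (-1.74).

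The 3 genes whose differences from WT lay nearest to those of Lef1 were sought among 9770 genes with a level of at least 5 in a library. The measure was the Euclidean distance over the 3 differences from WT, which share that library. Inhbb, which encodes a subunit of activin and inhibin, was nearest at a distance of 0.55. It was at 10.1 FPKM in WT, with 3.65 in SO, 2.42 in Ldha_KO and 3.24 in Ldhb_KO. Lefty1, an antagonist of Nodal, followed at 0.56, with 26.0, 5.48, 8.63 and 11.1. Ifitm5, an interferon-induced transmembrane family gene, was the third at 0.60, with 6.26, 1.58, 1.84 and 1.73. Their selection by nearness to Lef1 fixed that all 3 lie below WT in the other libraries. The same 3 were nearest under the 3 rescalings, while with a pseudocount of 0.1 the homeobox gene Gbx2 took the place of Ifitm5.

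Upstream of these effectors, 9 of 24 Wnt and R-spondin ligands and agonists passed the filter. In SO 1 was called higher (2.69% of all genes) and 0 lower, in Ldha_KO 0 and 0, and in Ldhb_KO 1 higher (3.36%) and 0 lower. The median differences were 0.49, 0.22 and 0.30. Wnt6 was called in SO, at 6.09 FPKM against 2.3005 in WT, 2.73 in Ldha_KO and 0.937 in Ldhb_KO. Rspo4, an R-spondin that strengthens Wnt signals, was called in Ldhb_KO, at 1.504 against 0.176 in WT, with 0.403 in SO and 1.02 in Ldha_KO. It passed the filter only through the knockouts, where it is high, and a filter of 5 leaves it out. Rspo1 was the most abundant of the others, from 2.42 to 3.73, and Wnt9a was at 0.800 in WT and 1.49 to 2.13 elsewhere. Of the 9 ligands kept, 7 were below 1 in WT and passed the filter only through another library, which favours positive differences, so neither the medians nor the counts support a direction. With a pseudocount of 0.1, 5 of the 9 were called higher in SO, where 6.15% of all genes were. In Ldha_KO 2 were called higher, beside 6.6% of all genes, and in Ldhb_KO 2, beside 8.68%. Wnt6 was then called lower in Ldhb_KO (-1.21), beside 2.37% of all genes.

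For ligand secretion, Wls, the carrier that takes Wnt proteins to the cell surface, was at 3.47 FPKM in WT, with 6.57 in SO, 8.15 in Ldha_KO and 4.84 in Ldhb_KO. WT was the lowest, and the difference was called in Ldha_KO (1.03), near the limit of the call. Of all genes, 2.65% were called higher there. Porcn, the acyltransferase that lipidates Wnt proteins, was at 28.1, 26.9, 24.8 and 36.2 and was not called.

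Among receptors and their ligases, 16 of 20 passed the filter. None was called in SO or Ldha_KO, and 1 was lower in Ldhb_KO, with 1.09% of all genes. That gene was Fzd10, a Frizzled receptor, at 14.6 FPKM in WT, with 13.0 in SO, 9.31 in Ldha_KO and 5.91 in Ldhb_KO. The most abundant were Fzd5 (30.1 to 42.8), the Wnt co-receptor Ryk (28.6 to 33.9) and Fzd7 (14.9 to 26.5). Fzd5 and Fzd7 were both lowest in Ldha_KO and highest in WT. The medians of the list were -0.17, 0.03 and -0.10 in SO, Ldha_KO and Ldhb_KO. After rescaling each library to the WT sum, the median in Ldhb_KO turned to 0.01.

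Of the secreted and membrane inhibitors, 12 of 19 passed the filter, and Notum alone was called against WT. It was lower in Ldha_KO, beside 1.06% of all genes, and in Ldhb_KO, beside 1.09%. With a pseudocount of 0.1, Tpbg (1.05 in Ldha_KO) and Wif1 (1.08 in Ldhb_KO) were called higher, beside 6.6% and 8.68% of all genes. Kremen2 was then called lower in Ldha_KO than in Ldhb_KO (-1.32). Notum, an enzyme that removes the lipid of Wnt proteins and a feedback target of the pathway, was at 13.9 FPKM in WT, with 8.19 in SO, 6.07 in Ldha_KO and 5.62 in Ldhb_KO. WT stood highest, and its differences were -0.70, -1.07 and -1.17, the last 2 called lower. After rescaling each library to the WT sum, or by the upper quartile, the call in Ldha_KO ended, at -0.95 and -0.99. Sfrp1, a secreted Frizzled-related protein, was at 40.2, 31.9, 33.5 and 22.0, and Sfrp2 at 8.62, 7.59, 7.59 and 10.6. Neither was called.

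None of the 13 kept genes of the destruction complex and Dishevelled was called in a comparison with WT, nor was any of the 14 kept nuclear cofactors. Of all genes, 2.69% were called higher and 0.472% lower in SO, 2.65% and 1.06% in Ldha_KO, and 3.36% and 1.09% in Ldhb_KO. At these shares, short lists like these and the others here would hold few called genes or none. The medians of the first list were -0.12, -0.11 and -0.16, and those of the second -0.11, -0.02 and -0.31. After rescaling each library to the WT sum they were 0.01, 0.03 and -0.05, and 0.03, 0.12 and -0.20. The sign thus turned in SO and Ldha_KO for both lists. The most abundant of the first were the kinase Csnk1a1 (101 to 125 FPKM), the tankyrase Tnks2 (66.6 to 74.7) and the kinase Gsk3a (55.9 to 60.5). Of the second, the corepressor Ctbp2 was at 142 in WT and 89.3 to 110 elsewhere, Ctbp1 at 54.3 and 42.1 to 46.1, and the catenin Ctnnd1 at 83.8 and 55.5 to 71.3. All 3 were highest in WT.

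Other textbook targets of Wnt signalling, with the 10 members left out, had 21 of 31 genes past the filter. None was called in SO. In Ldha_KO 3 were called higher, beside 2.65% of all genes, and 3 lower, beside 1.06%. In Ldhb_KO 0 were called higher and 3 lower, beside 1.09% of all genes lower. The medians were -0.14, 0.15 and 0.02. With a filter of 5, which leaves 13 of these genes, they were -0.28, -0.51 and -0.40, so the sign turned in both knockouts. Myc, a growth regulator, was at 66.5 FPKM in WT, with 40.5 in SO, 12.7 in Ldha_KO and 14.8 in Ldhb_KO. It was called lower in both knockouts. Notum was also called lower in both. The third called in Ldha_KO was the retinoic acid receptor Rarg (108 against 221 in WT), and the third in Ldhb_KO was cyclin D1, Ccnd1 (36.3 against 73.6). Ccnd1 was named after its values were seen and lay at the limit of the call. After rescaling each library to the WT sum, or by the upper quartile, the calls of Ccnd1 (-0.88 both times) and Rarg (-0.89 and -0.93) ended.

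Higher in Ldha_KO were the AP-1 subunit Jun (16.9 FPKM against 2.08 in WT), Id2, an inhibitor of helix-loop-helix factors (153 against 57.0), and the zinc finger gene Zfp703 (1.66 against 0.255). Zfp703 passed the filter only through Ldha_KO, where it was called, and a filter of 5 leaves it out. In Ldhb_KO these genes were at 4.55, 106 and 0.765 and were not called. With a pseudocount of 0.1, Jun (1.09) and Zfp703 (1.29) did pass the call in Ldhb_KO, and so did Id2 after rescaling to the WT sum (1.002) or by the upper quartile (1.005). Between the knockouts, Jun was called higher in Ldha_KO (1.69) and Ascl2, a basic helix-loop-helix factor, lower (-1.63), each the only one of the 21 in its direction. Of all genes, 1.67% were called higher in that comparison and 1.54% lower. Ascl2 was at 6.77 FPKM in WT, with 5.52 in SO, 3.60 in Ldha_KO and 13.2 in Ldhb_KO. WT and SO lay between the knockouts, and both calls held under the 6 alternatives. Most of these genes answer to many pathways besides Wnt. Sall4, a pluripotency factor and the second most abundant of this list, was at 150 in WT and 80.9 to 120 elsewhere and was not called.

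**Figure D4:**
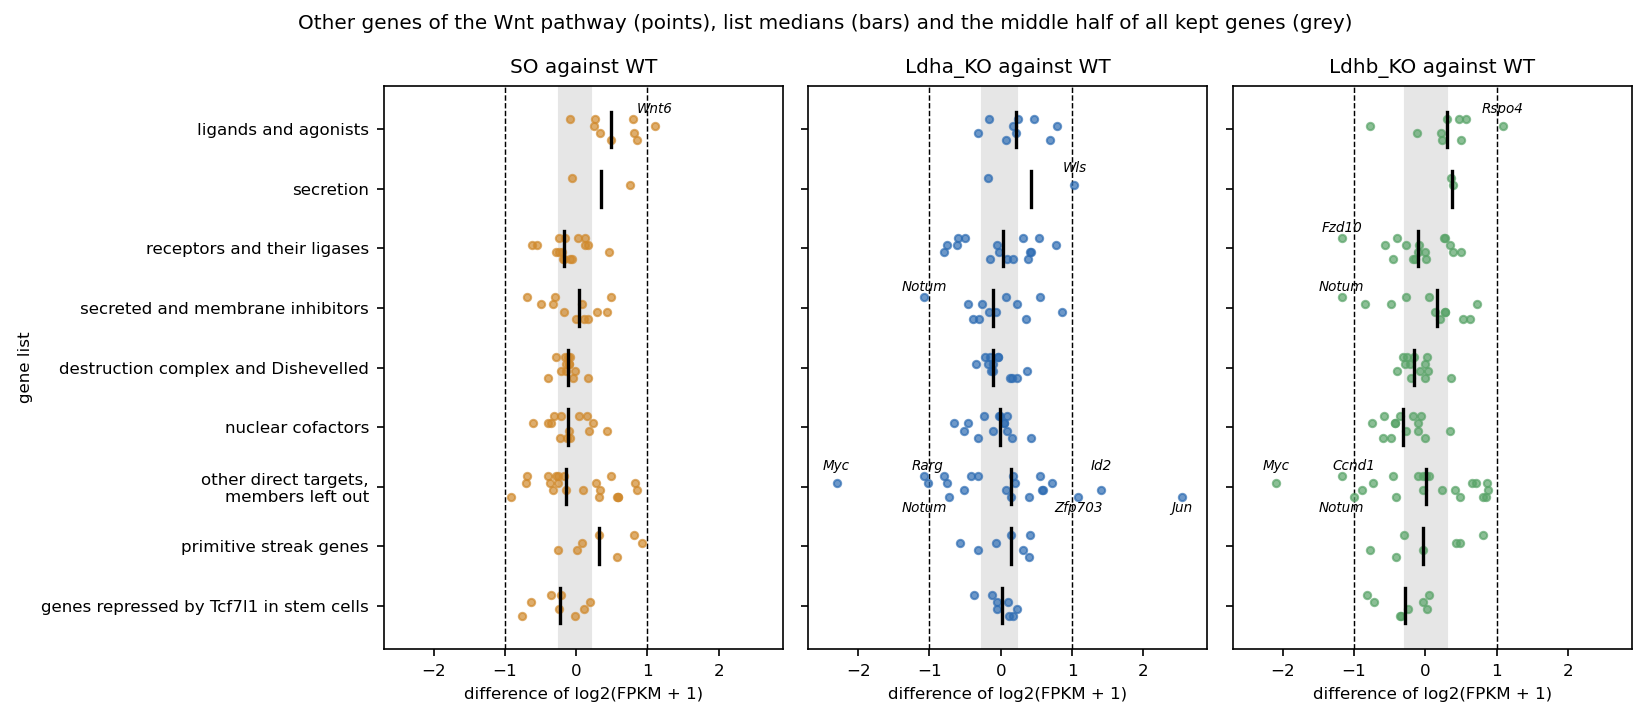
Difference from WT on the log2(FPKM + 1) scale (horizontal axis) for the kept genes of each Wnt-related list (vertical axis) in SO, Ldha_KO and Ldhb_KO; a point is 1 gene in 1 pair of libraries, a bar the list median, grey the range between the quartiles of all kept genes and dashed lines the call. Named genes passed the call, with Myc lower in both knockouts, and Notum too (in Ldha_KO not under 2 of the rescalings).

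Of 16 primitive streak genes, 7 passed the filter and none was called against WT, with medians of 0.33, 0.15 and -0.04. After rescaling each library to the WT sum, the median in Ldhb_KO turned to 0.02. Mesp2, a factor of early mesoderm, came nearest in SO at 0.92, and passed the call there after rescaling to the WT sum (1.06). Tdgf1, a co-receptor of Nodal, was at 752 FPKM in WT, with 799.5 in SO, 505 in Ldha_KO and 1056 in Ldhb_KO. Nodal was at 49.3, 73.6, 65.0 and 37.0. Between the knockouts Tdgf1 was called lower in Ldha_KO (-1.06), and Tlnrd1 (Mesdc1 in the list) was called higher there (14.3 against 6.20). Each was 1 of the 7, beside 1.54% of all genes called lower and 1.67% higher. Tdgf1 is also among the stem cell markers, so its call is not particular to the streak. Ascl2 and Tlnrd1 were named after their values were seen. Of 8 genes that Tcf7l1 is known to repress in stem cells, all passed the filter and none was called. Their medians were -0.23, 0.02 and -0.29. Nanog was at 503, 541, 591 and 424, Klf2 at 357, 230 and then 346 and 351, and Esrrb at 240, 207, 220 and 248.

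The settings bore on single members in different ways. Across the alternatives the difference of Lef1 ranged from -1.91 to -1.49 in SO and from -2.10 to -1.65 in Ldha_KO, and it was called in all. In Ldhb_KO it ranged from -1.11 to -0.87 and was called with the pseudocount of 0.1 alone. With that pseudocount 1.38% of all genes were called lower in SO, 2.44% in Ldha_KO and 2.37% in Ldhb_KO. The difference of Axin2 ranged from -0.57 to -0.38 in SO, from -0.76 to -0.57 in Ldha_KO and from -0.62 to -0.46 in Ldhb_KO, and it was called in none.

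**Figure D5:**
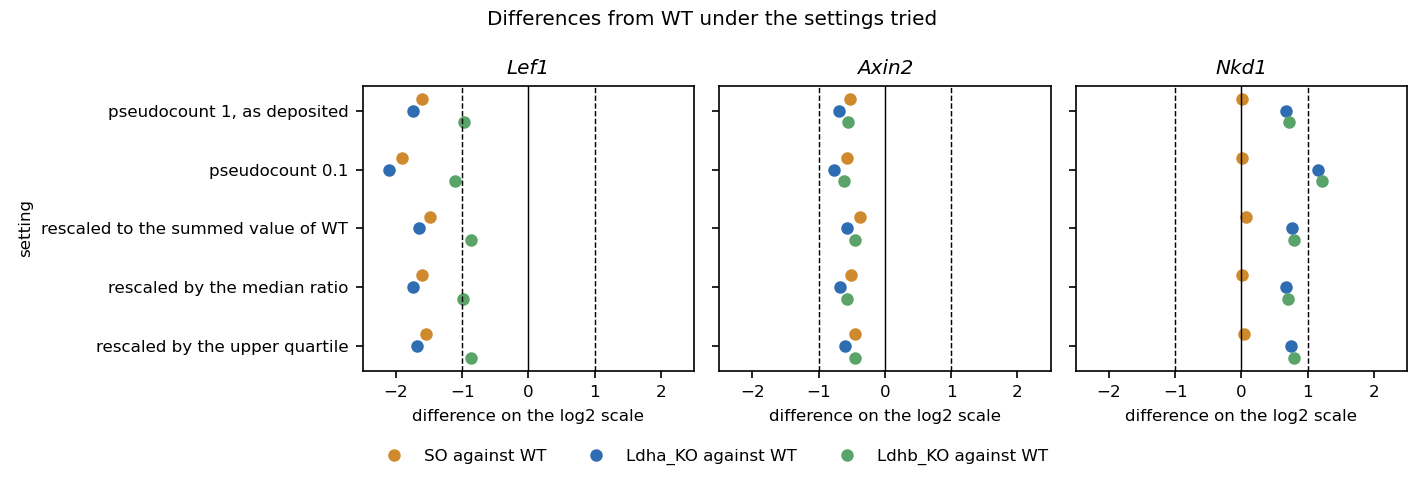
Difference from WT (horizontal axis, log2 scale) of Lef1, Axin2 and Nkd1 under 5 settings (vertical axis) in SO, Ldha_KO and Ldhb_KO; a point is 1 pair of libraries and dashed lines mark the call. Lef1 stayed past the call in SO and Ldha_KO, Axin2 stayed short of it, and Nkd1 passed it in the knockouts with the pseudocount of 0.1 alone.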

How the data were processed

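RNA sequencing of 4 libraries was analysed, 1 each of WT, SO, Ldha_KO and Ldhb_KO. The deposited tables hold 1 value per gene symbol, read from the values as FPKM made by the authors (fragments scaled by gene length and library depth), since they are not whole and step differently between genes. RPKM could not be told apart. The submitters' processing notes name build mm9 and, with no roles, HTSeq 0.11.2, Bowtie2 2.3.4.3, edgeR 3.26.8 and SAMtools 1.9. No source used here names the gene annotation.

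Differences were taken on the log2(FPKM + 1) scale over genes of at least 1 in at least 1 library and called at 2-fold, with Python 3.11.15, pandas 2.3.3 and numpy 2.4.6. Such differences understate changes of low genes. The calling code was tested on simulated data with known folds, which gives no error for the calls. No p-value was computed, because each group had 1 library. The deposited values summed to 471595 to 526316 per library.

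The members and the gene lists were chosen with earlier results of these data known. By rule, named genes were the members, Ldha, Ldhb, up to 6 called genes and the 3 most abundant of each list, and the 3 genes nearest to a called member. Outside this rule, single cell type markers and list genes called only under an alternative were named after their values were seen. So were Ccnd1, Ascl2 and Tlnrd1. Alternatives were a pseudocount of 0.1, no filter, a filter of 5 and 3 rescalings. A planned comparison of protein sequences was not run. Aes, 1 of 17 nuclear cofactors, did not match a symbol.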

Additional observations from a re-analysis of the deposited data

How the results depend on the processing

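Counts of called genes (members, lists and all genes), member differences and list medians were recomputed under 6 alternatives, and the genes nearest to Lef1 under those that change the scale. The TCF/LEF shares and the promoter counts use none of these choices. With a pseudocount of 0.1, 1 Wnt member was called higher in Ldha_KO and 1 in Ldhb_KO (Nkd1, at 1.16 and 1.22), and 1 lower in Ldhb_KO (Lef1, at -1.11). No other count of called members changed under the 6 alternatives, and no called difference of a member changed sign. The counts of all genes called higher and lower with that pseudocount were 808 and 182 in SO, 868 and 321 in Ldha_KO and 1141 and 311 in Ldhb_KO, and 419 and 574 between the knockouts. With a filter of 5 they were 234 and 40 in SO, and 262 were higher in Ldhb_KO. That filter leaves fewer genes and leaves out Cdx1, Nkd1 and Tcf7l2, and of the called genes of the lists Rspo4 and Zfp703. The median of the ligands in SO went from 0.49 to 1.29 with a pseudocount of 0.1, and the filter of 5 leaves 1 ligand, Wnt6. With the pseudocount of 0.1, Wif1 (1.08) and Tbx6 (1.56) were also called higher in Ldhb_KO, Tpbg (1.05) in Ldha_KO and Mesp2 (1.14) in SO. Wnt6 was called lower in Ldhb_KO (-1.21). Of the 21 other targets, 2 were called higher in SO and 3 in Ldhb_KO with that pseudocount, beside 6.15% and 8.68% of all genes. Among these, Wnt8a, Tbx6 and Zfp703 were below 1 in WT and passed the filter only through another library, which favours positive differences. Rescaling to the summed value of WT moved the median of all genes by 0.14, 0.12 and 0.10 in SO, Ldha_KO and Ldhb_KO. No paired analysis was possible because each group had 1 library, and no library could be left out. Depth limits Sp5 and T, as their few reads show.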
